A study of Mus musculus with 9 samples.

Results

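The lamins and the genes of the LINC complex (linker of nucleoskeleton and cytoskeleton) were followed in B16 cells, a mouse melanoma line. They are 10 genes, chosen by name as genes of nuclear mechanics, of the 22972 gene names in the deposited files, and all 10 were found. The cells were wild-type and grown on flexible PDMS film, and RNA was taken at day 3 in all groups. A total of 9 libraries were analyzed, with 3 libraries in each of 3 groups. These were unstrained control cells (CTL), cells under cyclic straining of the film for 72 h (MS) and cells that received 100 ng/mL of the non-muscle myosin II inhibitor blebbistatin for 72 h (Blebb.). For Blebb. the labels mention the inhibitor alone, whereas in the study's methods straining follows its addition. The legend of the study's viability images names its blebbistatin arm as mechanically stimulated. Its proliferation assay also had inhibitor-treated cells without straining. Whether these libraries are from strained cells cannot be told from the labels. The labels call the replicates parallel experiments and do not say which wells or days they came from, so p values measure only the spread between these libraries, which may be technical.

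The lamina is a meshwork of intermediate filaments under the inner nuclear membrane. Lmna gives the A-type lamins, which stiffen the nucleus and are known to follow tissue stiffness, and Lmnb1 and Lmnb2 give the farnesylated B-type lamins. Lbr and Emd give inner membrane proteins that hold the lamina and chromatin, the lamin B receptor and emerin. Sun1 and Sun2 cross the inner membrane and bind in the space between both membranes to the nesprins of Syne1, Syne2 and Syne3, which connect to actin, microtubules and, through plectin, intermediate filaments. Force from actomyosin, the target of blebbistatin, reaches the nucleus through this chain.

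The SE is the standard error of a log2 difference. The values were FPKM, which scale a gene's fragments to transcript length and library size, so that levels of different genes can be compared as far as the length used is right. The build in the submitters' processing notes is GRCm38 (mm10), and positions below are from GENCODE M21 on that build. All are protein-coding genes, and a value covers a gene as a whole, so lamin A and lamin C, both made from Lmna, are not separated. Lmna lies at chr3:88480147-88509956, Lmnb1 at chr18:56707813-56753424 and Lmnb2 at chr10:80901203-80918245. Lbr lies at chr1:181815335-181843046 and Emd at chrX:74254687-74261548. Sun1 lies at chr5:139200637-139249840 and Sun2 at chr15:79724070-79742536, and each overlaps an antisense gene, as Lbr does Dnah14 on the opposite strand, from which its reads cannot be told apart where counting does not use strand. Syne1 lies at chr10:5020917-5551482, Syne2 at chr12:75818134-76110926 and Syne3 at chr12:104929933-105009809. Emd overlaps the pseudogene Gm14686 and Lbr the rRNA gene Gm26004, each on its own strand, which strand cannot separate. Syne1 overlaps 4 genes, among them Gm10097 on the opposite strand and the pseudogene Gm48836 on its own. Syne2 overlaps a microRNA gene.

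The files gave no read counts, and the depth is unknown, since the low values of a library showed no common step. The columns summed to between 439939 and 484093 FPKM. All 7 melanocyte markers reached 1 FPKM, while 0 of 6 fibroblast and 0 of 5 keratinocyte markers did. Of 5 macrophage markers, Cd68 and Lyz2 did, with summed levels of the list between 2.10 and 4.32 FPKM, and Ptprc, the common leukocyte antigen, was at 0 in all libraries. CTL replicate 1 and Blebb. replicate 2 stood apart on the first principal component (70.4% of the variance), at -42.1 and -43.9, with the others between -10 and 35.8. Differences between groups that rest on them are given with and without them. Levels and spreads between replicates include them unless stated. Libraries also differed in how FPKM depended on GC content. Across genes, Pearson's r of a library's log2 deviation with GC content was lowest in MS replicate 1 (-0.642) and highest in Blebb. replicate 1 (0.547). Differences were tested by limma on log2(FPKM + 1) over the 10109 genes whose mean reached 1 FPKM, and on this scale changes of low genes come out too small. Of the 10 genes, 9 passed this minimum and Syne1 did not.

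In the results, the levels spanned a wide range. By the median of the 9 libraries, Lmna was highest at 176 FPKM, followed by Emd at 42.0, Lmnb1 at 33.4, Sun2 at 19.6, Sun1 at 17.8, Lmnb2 at 16.9, Lbr at 15.99, Syne2 at 4.54, Syne3 at 1.42 and Syne1 at 0.835 FPKM. Lmna was above Emd in 9 of 9 libraries with no overlap of their ranges, and Syne2 was above Syne3 in the same way. Emd was above Lmnb1 in 8 of 9 libraries and Lmnb1 above Sun2 in 7, so these neighbors overlapped. Sun2, Sun1, Lmnb2 and Lbr could not be ordered, since each was above the next in only 5, 5 and 4 of 9 libraries. Syne1 and Syne2 have coding transcripts of up to 27908 and 21704 nucleotides and short ones of 2726 and 440, so their level per length depends on the length used, which is not given in the sources used here. Coding transcripts run from 785 to 3156 nucleotides for Lmna and from 1643 to 3531 for Lmnb2, and that of Lmnb1 has 2843. The order of levels and the size of the lamin ratios and shares below therefore also depend on the length used.

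**Figure D1:**
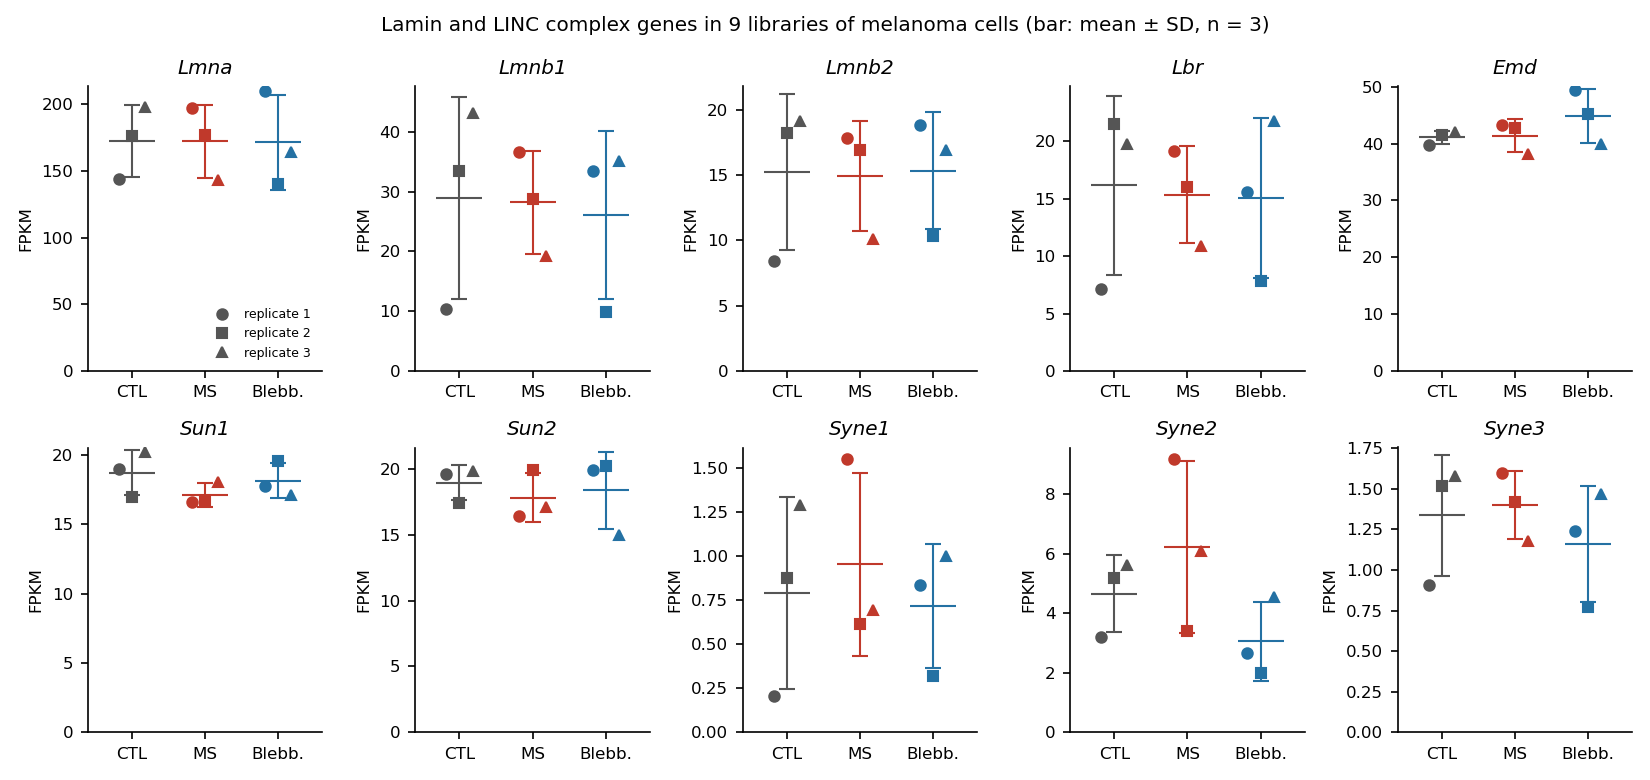
FPKM (vertical axes, starting at 0) of the 10 genes in CTL, MS and Blebb., with 1 symbol a library by replicate number and bars for the mean ± SD (n = 3). The group means of Lmna are nearly level at 171 to 173 FPKM, and CTL replicate 1, MS replicate 3 and Blebb. replicate 2 are the low points of Lmnb1, Lmnb2 and Lbr, whereas Sun1 and Emd are flat.

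Lmna, the A-type lamin gene, differed between the groups by less than the spread between replicates. It was at 144, 176 and 198 FPKM in CTL, 197, 177 and 143 FPKM in MS and 210, 140 and 164 FPKM in Blebb. The groups overlapped fully, and each held 1 library near 140. The mean of CTL was 173 ± 27.3 FPKM (SD, n = 3), that of MS 172 ± 27.5 and that of Blebb. 171 ± 35.4. MS differed from CTL by -0.0013 on the log2 scale (SE 0.19, adjusted p = 1.00, limma), and the 95% confidence interval ran from a fold of 0.739 to 1.35. It was -0.017 in Blebb. against MS (adjusted p = 0.989, limma), with an interval of 0.731- to 1.34-fold. The sign of such small values turned with single libraries, since Lmna in MS against CTL was at 0.13 without MS replicate 3 and -0.13 without CTL replicate 1.

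Lmnb1, the B-type lamin gene that is lost in senescent cells, varied most among the lamins, by 4.36-fold between the lowest and the highest library. It was at 10.3, 33.5 and 43.2 FPKM in CTL, 36.6, 28.8 and 19.3 FPKM in MS and 33.4, 9.90 and 35.1 FPKM in Blebb. CTL replicate 1 and Blebb. replicate 2 were far below the other libraries and MS replicate 3 lay between, so that each group held a low library. The means were 29.0 ± 16.9 (SD, n = 3), 28.2 ± 8.66 and 26.1 ± 14.1 FPKM in CTL, MS and Blebb. The log2 difference of MS from CTL was 0.14 (SE 0.59, adjusted p = 1.00, limma), and the interval of 0.438- to 2.75-fold includes a level 2-fold higher or 2-fold lower in MS. In Blebb. against MS it was -0.25 (SE 0.59, adjusted p = 0.942, limma). Leaving out CTL replicate 1 turned the MS value to -0.46, and leaving out CTL replicate 3 raised it to 0.52. For Blebb. against MS, the value was 0.32 when Blebb. replicate 2 was omitted and -0.55 when Blebb. replicate 3 was.

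Lmnb2, the other B-type lamin gene, had the same low libraries. It was at 8.38, 18.2 and 19.1 FPKM in CTL, 17.8, 16.9 and 10.1 FPKM in MS and 18.8, 10.3 and 16.9 FPKM in Blebb. The group means of 15.2 ± 5.94 (SD, n = 3), 15.0 ± 4.22 and 15.3 ± 4.47 FPKM lay within 1 SD of each other. The log2 difference was 0.017 for MS from CTL (adjusted p = 1.00, limma) and 0.032 for Blebb. from MS (adjusted p = 0.989, limma), each with an SE of 0.35. It turned to -0.34 without CTL replicate 1 in the first comparison and to -0.21 without MS replicate 3 in the latter.

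Since the A-type and B-type lamins differed in spread, their ratio was compared within each library, where any scaling of a whole library cancels. The FPKM of Lmna divided by that of Lmnb1 was 14.0, 5.25 and 4.59 in CTL, 5.39, 6.15 and 7.41 in MS and 6.28, 14.1 and 4.68 in Blebb. A high ratio was found in CTL replicate 1 and Blebb. replicate 2, the libraries with the least Lmnb1, while the other 7 libraries lay between 4.59 and 7.41. Lmna made up 75.9% of the summed lamin FPKM in Blebb. replicate 3 and 88.5% in CTL replicate 1, with a median of 79.5%. The mean log2 ratio was 2.80 ± 0.88 (SD, n = 3) in CTL, 2.65 ± 0.23 in MS and 2.90 ± 0.83 in Blebb. The difference was -0.15 in MS against CTL (exact two-sided permutation test, p = 1.00), 0.25 in Blebb. against MS (exact permutation p = 0.800) and 0.099 in Blebb. against CTL (exact permutation p = 0.700). With 3 libraries against 3 this test cannot go below 0.1, and the adjusted values over the 6 ratio tests were between 0.960 and 1.00. The direction rested on single libraries. MS against CTL was at 0.35 without CTL replicate 1, and Blebb. against MS at -0.21 without Blebb. replicate 2. Blebb. against CTL was at -0.36 without Blebb. replicate 2, -0.20 without CTL replicate 3 and -0.10 without CTL replicate 2. Without both CTL replicate 1 and Blebb. replicate 2 it was 0.14, in the direction of the full set. Lmna and Lmnb1 have a GC content of 53.1% and 53.3% in their longest transcripts.

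The B-type pair was less steady than the SUN pair. Lmnb1 divided by Lmnb2 was 1.22, 1.84 and 2.26 in CTL, 2.05, 1.70 and 1.91 in MS and 1.77, 0.962 and 2.08 in Blebb. Lmnb1 was the more abundant B-type lamin transcript in 8 of 9 libraries, with Blebb. replicate 2 as the exception. The difference of the mean log2 ratio was 0.13 in MS against CTL (exact permutation p = 0.800), -0.30 in Blebb. against MS (exact permutation p = 0.700) and -0.17 in Blebb. against CTL (exact permutation p = 0.600). Without CTL replicate 1 the first was -0.12, and without Blebb. replicate 2 the others were 0.029 and 0.16. The last was 0.023 without CTL replicate 3 and -0.087 without both CTL replicate 1 and Blebb. replicate 2. The longest transcripts of Lmnb1 and Lmnb2 have a GC content of 53.3% and 57.6%. After correction for GC content, the differences in the same order were 0.081, -0.22 and -0.14. For Sun1 and Sun2 the GC content is 51.4% and 56.85%. Sun1 divided by Sun2, in contrast, stayed between 0.839 and 1.14 in all libraries, with means of 0.989 ± 0.0273 (SD, n = 3) in CTL, 0.970 ± 0.116 in MS and 1.00 ± 0.126 in Blebb.

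**Figure D2:**
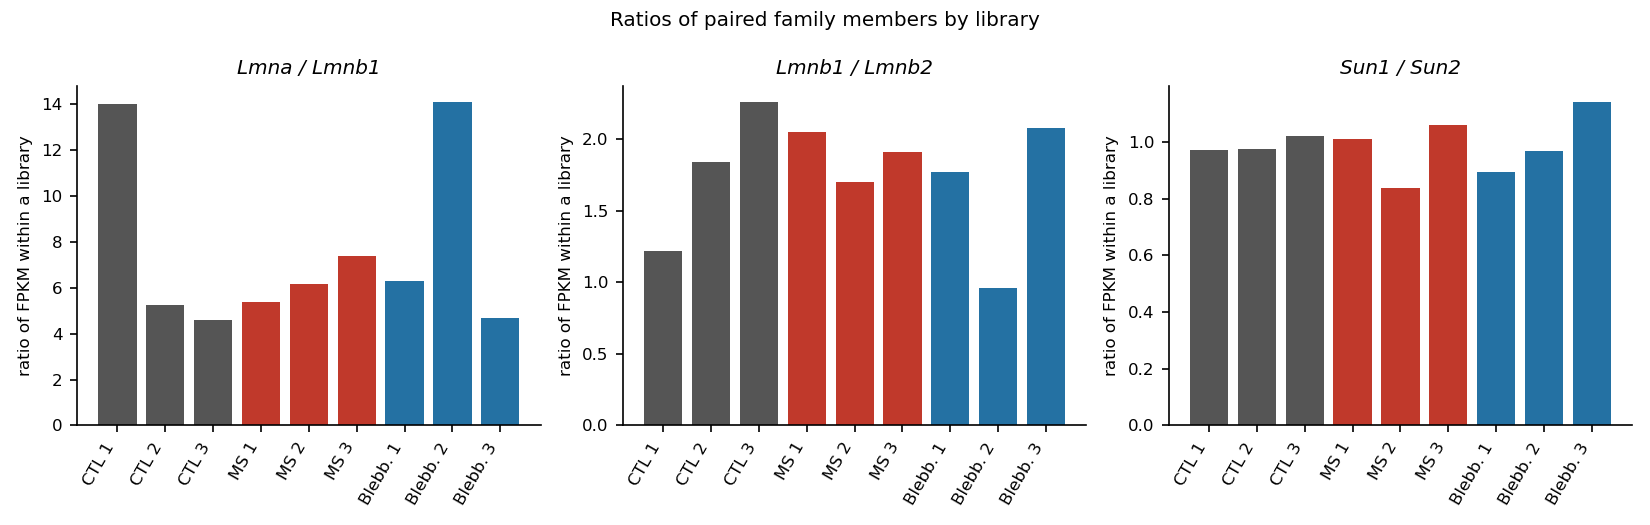
Ratio of FPKM within a library (vertical axes, starting at 0) for Lmna over Lmnb1, Lmnb1 over Lmnb2 and Sun1 over Sun2, with 1 bar a library. CTL replicate 1 and Blebb. replicate 2 reach 14.0 and 14.1 for Lmna over Lmnb1 and have the lowest Lmnb1 over Lmnb2, and the SUN ratio is near 1 in all 9 libraries.

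Lbr, whose product binds B-type lamins and heterochromatin and is also a sterol reductase, had the same low libraries as the B-type lamins. It was at 7.18, 21.5 and 19.8 FPKM in CTL, 19.2, 15.99 and 10.9 FPKM in MS and 15.6, 7.86 and 21.8 FPKM in Blebb. The groups overlapped, and MS differed from CTL by a log2 value of 0.030 (SE 0.45, adjusted p = 1.00, limma) and Blebb. from MS by -0.093 (adjusted p = 0.974, limma). It was -0.44 without CTL replicate 1 in the first comparison and 0.29 without Blebb. replicate 2 in the latter. Emd, the emerin gene, was among the steadiest. It was at 39.8, 41.5 and 42.0 FPKM in CTL, 43.3, 42.8 and 38.1 FPKM in MS and 49.4, 45.2 and 40.0 FPKM in Blebb. A pair of Blebb. libraries lay above all others, but Blebb. replicate 3 lay within CTL, and the log2 fold change of 0.11 against MS (SE 0.12, adjusted p = 0.897, limma) covered 0.899- to 1.30-fold. It was 0.030 after correction for GC content, 0.040 on omission of Blebb. replicate 1, 0.053 on omission of MS replicate 3 and 0.19 on omission of Blebb. replicate 3.

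Sun1 and Sun2, the inner membrane side of the LINC complex, showed no difference beyond the replicates. Sun1 was at 19.0, 17.0 and 20.2 FPKM in CTL, 16.6, 16.7 and 18.1 FPKM in MS and 17.8, 19.6 and 17.1 FPKM in Blebb. The log2 difference of MS from CTL was -0.12 (SE 0.12, adjusted p = 1.00, limma), a direction that held with each library left out, between -0.19 and -0.070. The interval of 0.762- to 1.11-fold was among the narrowest of the genes described. Sun2 was at 19.6, 17.4 and 19.8 FPKM in CTL, 16.4, 19.9 and 17.1 FPKM in MS and 19.9, 20.2 and 15.0 FPKM in Blebb., and its log2 difference was -0.088 for MS from CTL (adjusted p = 1.00, limma) and 0.038 for Blebb. from MS (adjusted p = 0.967, limma). Correction for GC content turned these to 0.0024 and -0.089.

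Syne2, the gene of nesprin-2, gave the widest difference between Blebb. and MS among the genes described. It was at 3.20, 5.19 and 5.61 FPKM in CTL, 9.20, 3.40 and 6.09 FPKM in MS and 2.66, 1.98 and 4.54 FPKM in Blebb. MS replicate 1 was the highest library and all Blebb. libraries were in the lower part of the range, but MS replicate 2 lay below Blebb. replicate 3, so the groups overlapped. The means were 4.67 ± 1.29 (SD, n = 3), 6.23 ± 2.91 and 3.06 ± 1.32 FPKM in CTL, MS and Blebb. Its log2 fold change in Blebb. against MS was -0.80 (SE 0.34, interval 0.335- to 0.986-fold), with an unadjusted p of 0.0454 and an adjusted p of 0.897 (limma), so that it did not pass the threshold. It was -0.51 without MS replicate 1 and -1.12 without MS replicate 2. Against CTL it was 0.30 in MS (adjusted p = 1.00, limma) and -0.50 in Blebb. (adjusted p = 1.00, limma), and the MS value was 0.0060 when MS replicate 1 was omitted and came to 0.61 when MS replicate 2 was. After correction for GC content, Blebb. against MS stood at -0.76. Libraries also differed in how FPKM depended on transcript length, with r across genes from -0.278 in Blebb. replicate 1 and -0.243 in Blebb. replicate 2 to 0.390 in CTL replicate 3, and the part of length in the Syne2 values was not tested.

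Syne3, the gene of nesprin-3, was low, at 0.910, 1.52 and 1.58 FPKM in CTL, 1.60, 1.42 and 1.18 FPKM in MS and 1.24, 0.772 and 1.47 FPKM in Blebb. The log2 difference was 0.047 for MS from CTL (adjusted p = 1.00, limma) and -0.16 for Blebb. from MS (adjusted p = 0.897, limma). The latter was -0.026 on omission of Blebb. replicate 2 and 0.0091 after quantile normalization. Syne1, the gene of nesprin-1, was below the minimum for limma, at 0.209, 0.874 and 1.29 FPKM in CTL, 1.55, 0.617 and 0.695 FPKM in MS and 0.835, 0.322 and 0.999 FPKM in Blebb. It spanned 7.45-fold between libraries of 1 cell line, and CTL replicate 1 and Blebb. replicate 2 were lowest. By exact permutation (two-sided), p was 0.700 for MS from CTL, 0.700 for Blebb. from MS and 0.900 for Blebb. from CTL, where the smallest possible p is 0.1.

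Over the genes described, 0 of 9 passed an adjusted p of 0.05 in any of the 3 comparisons (limma), as did 0% of the 10109 genes tested in each. With no adjustment, p was under 0.05 for 0 of 9 in MS against CTL (0.158% of all genes tested), 1 of 9 in Blebb. against MS (1.25%) and 0 of 9 in Blebb. against CTL (0.0890%). The 1 gene, Syne2, lost this mark on omission of any of 6 of the 9 libraries, and its unadjusted p was 0.0506 with the replicate number as a block, 0.0537 with only both groups compared in the fit and 0.0640 with no minimum level (limma). Genes with no overlap between both groups numbered 0 of 9 in each comparison, and they made up 3.17%, 3.73% and 2.08% of all genes tested. At such low shares, 0 of 9 does not set these genes apart. The 3 comparisons share libraries and are not independent. Their median log2 difference was 0.017 for MS from CTL, with 6 genes above 0 and 3 below, and -0.017 in Blebb. against MS, with 4 above and 5 below, and -0.050 in Blebb. against CTL, with 2 above and 7 below. Over all genes tested the medians were -0.0018, -0.0059 and -0.013.

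**Figure D3:**
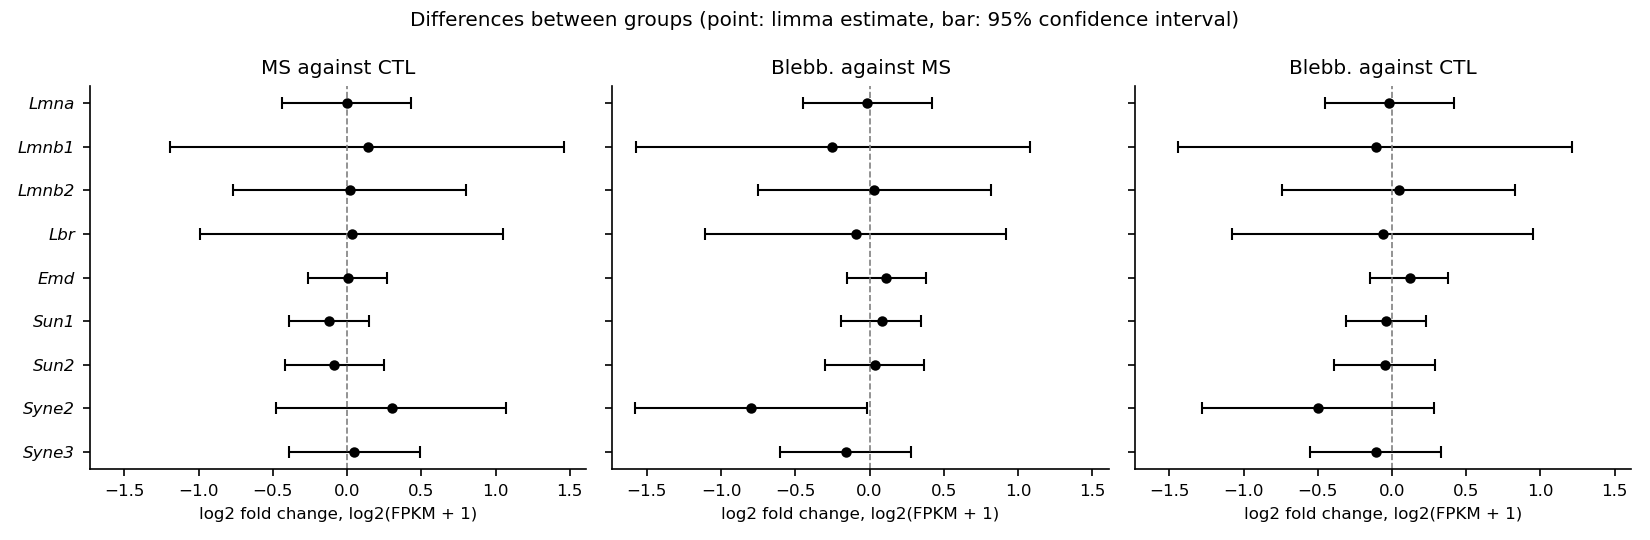
Log2 fold change on the log2(FPKM + 1) scale (horizontal axes) of the 9 genes tested in the 3 comparisons, with points for the limma estimate and bars for the 95% confidence interval. The intervals of Lmnb1 are the widest, those of Sun1 and Emd are the narrowest, and Syne2 in Blebb. against MS is the one interval that does not reach 0, with an adjusted p of 0.897.

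The spread between replicates separated the genes into steady and variable ones. The pooled SD within groups on the log2(FPKM + 1) scale was 0.10 for Sun1, 0.11 for Emd and 0.16 for Sun2, against a median of 0.25 over all genes tested. It was 0.21 for Syne3, 0.25 for Lmna, 0.48 for Syne2, 0.50 for Lmnb2, 0.66 for Lbr and 0.87 for Lmnb1, and 98.0% of the genes tested had a smaller SD than Lmnb1. These SDs include CTL replicate 1 and Blebb. replicate 2, and outside these libraries Lmnb1 ran from 19.3 to 43.2 FPKM. The groups accounted for 2.02% of the sum of squares of Lmnb1, 0.250% of that of Lmnb2, 0.519% of that of Lbr and 0.161% of that of Lmna, against a median of 12.7% over all genes tested. The share was 6.74% for Sun2, 13.3% for Syne3, 27.7% for Emd and 29.9% for Sun1. It was highest for Syne2, at 41.0%, a gene with an SD within groups above the median. In 5 of 9 genes (Lmna, Lmnb1, Lmnb2, Lbr and Syne3) the lowest library of each group was CTL replicate 1, MS replicate 3 and Blebb. replicate 2, a pattern found in 23.0% of all genes tested. Over the 9 libraries, Pearson's r was 0.94 for Lmnb1 with Lmnb2, 0.96 for Lmnb1 with Lbr and 0.93 for Lmnb2 with Lbr. Without these low libraries, r over the other 6 was 0.61, 0.48 and -0.11, so the likeness of these genes rested largely on them.

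Genes of proliferation were low in the same libraries. B-type lamins and Lbr are known to be more abundant in dividing cells, and a list of 7 genes (Mki67, Top2a, Ccnb1, Cdk1, Mcm2, Mcm5 and Pcna) was set beside them. All 7 reached 1 FPKM. Their summed level was 293, 719 and 725 FPKM in CTL, 816, 639 and 396 FPKM in MS and 706, 299 and 708 FPKM in Blebb. The libraries with sums of 293 and 299 were those with Lmnb1 at 10.3 and 9.90 FPKM, and the library at 396 was that with Lmnb1 at 19.3 FPKM. The summed level of the 7 melanocyte markers was between 8303 and 12933 FPKM in CTL, 7444 and 11974 in MS and 8132 and 11697 in Blebb., and within each group the sum was highest in CTL replicate 1, MS replicate 3 and Blebb. replicate 2. Single markers differed in this. Pmel, a melanosome protein, was at 6318, 5106 and 5679 FPKM there and at 2079 to 3631 FPKM elsewhere. Tyr was at 76.0, 80.5 and 74.9 FPKM there and at 40.2 to 49.7 FPKM elsewhere. Dct was at 2678, 2672 and 2472 FPKM there and at 1624 to 1904 FPKM elsewhere. Sox10 was also highest there within each group, at 308, 262 and 313 FPKM. Tyrp1 was so in CTL and MS, but Blebb. replicate 2 (2078 FPKM) lay below Blebb. replicate 3 (2240 FPKM). Mitf, the lineage's transcription factor, was instead at 9.50, 21.2 and 8.51 FPKM in these libraries and at 14.2 to 36.2 FPKM elsewhere. Mlana was lowest of all libraries in CTL replicate 1 (970 FPKM) and Blebb. replicate 2 (1072 FPKM). The part of cell state in the levels of Lmnb1, Lmnb2 and Lbr was not tested, and in bulk RNA fewer dividing cells and less RNA per cell cannot be told apart.

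**Figure D4:**
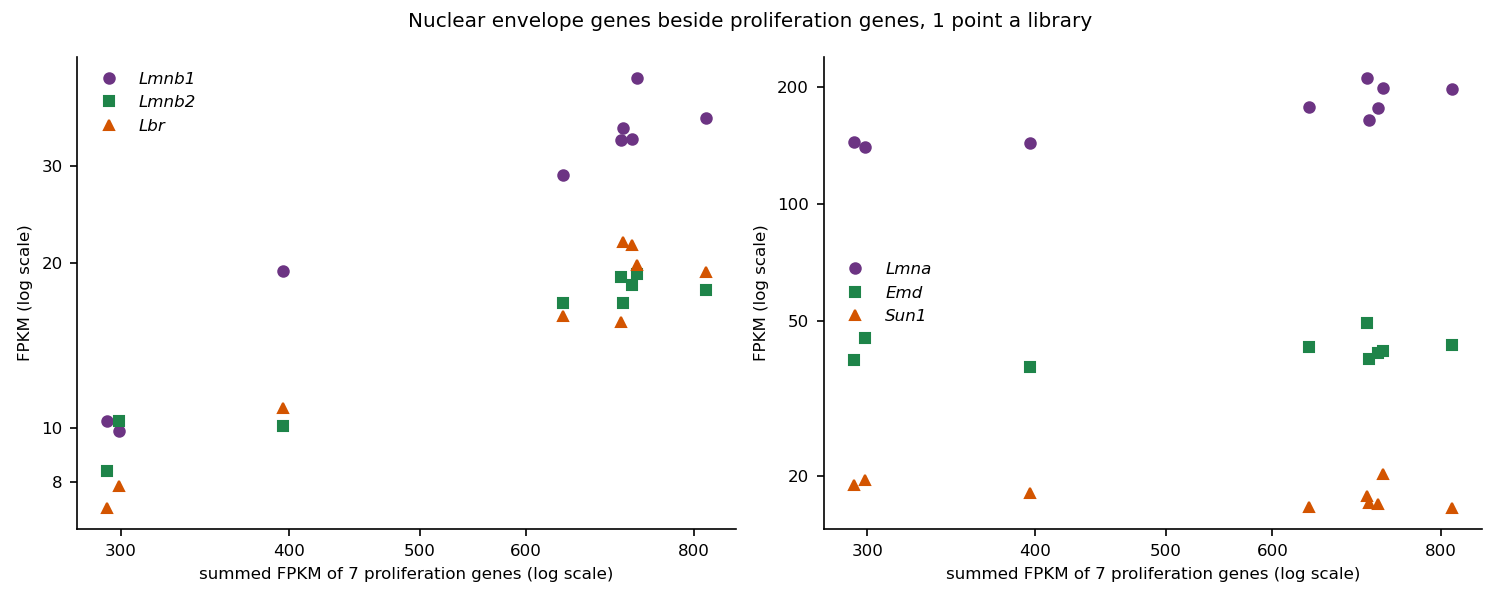
FPKM of Lmnb1, Lmnb2 and Lbr (left) and of Lmna, Emd and Sun1 (right) against the summed FPKM of 7 proliferation genes, both on log axes, with 1 point a library and gene. In the 3 libraries with sums of 293, 299 and 396 FPKM, Lmnb1, Lmnb2 and Lbr are lower than in the other 6, which lie between 639 and 816, and Lmna is also lower, at 140 to 144 against 164 to 210 FPKM, while the values of Sun1 and Emd overlap between both sets of libraries.

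The sequences upstream of these genes were read because Lbr and Lmnb2 were low in the same libraries while Sun2 was steady. RefSeq promoters on GRCm38.p6 were found for 9 of the 10 genes, at 14 start sites, and not for Lmnb1. The 250 bases before each start were searched on both strands for CCAAT, the box bound by NF-Y, and for the cell cycle homology element TTTGAA, which can share at most 1 base at their ends. Of 32851 promoters of the same length, 33.8% held the first motif, 5252 promoters the other and 5.55% both. Of the 14 promoters of these genes, 6 held the first and 2, those of Lbr and Sun2, held both. The promoters below are written 5′ to 3′ on the minus strand, which all 3 genes use, with matches on either strand in capitals, and they lie at chr1:181842402-181842651 (Lbr), chr10:80918246-80918495 (Lmnb2) and chr15:79742537-79742786 (Sun2).
Lbr: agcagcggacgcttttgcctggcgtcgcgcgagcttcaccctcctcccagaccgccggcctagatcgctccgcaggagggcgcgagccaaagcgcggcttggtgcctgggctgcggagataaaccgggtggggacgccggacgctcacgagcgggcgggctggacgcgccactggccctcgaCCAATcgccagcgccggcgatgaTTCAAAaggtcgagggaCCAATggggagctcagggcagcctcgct
Lmnb2: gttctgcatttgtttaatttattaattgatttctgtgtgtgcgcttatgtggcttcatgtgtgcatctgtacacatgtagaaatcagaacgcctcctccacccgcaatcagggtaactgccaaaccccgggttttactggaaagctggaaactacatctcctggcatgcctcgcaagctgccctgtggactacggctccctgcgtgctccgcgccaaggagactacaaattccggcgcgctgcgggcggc
Sun2: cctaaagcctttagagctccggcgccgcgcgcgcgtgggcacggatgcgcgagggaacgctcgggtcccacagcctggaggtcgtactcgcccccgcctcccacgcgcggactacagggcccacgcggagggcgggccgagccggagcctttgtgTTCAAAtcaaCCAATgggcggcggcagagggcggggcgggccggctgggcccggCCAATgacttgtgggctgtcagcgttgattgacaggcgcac
Lbr, which varied by 3.04-fold between libraries, and Sun2, which varied by 1.35-fold, thus both held 2 boxes of the first kind and 1 of the other. Lmnb2, which varied by 2.28-fold, held none here or at its other start site. Of the 9 genes, 5 held the first motif at some start (Lmna, Sun1, Sun2, Emd and Lbr). Whether the motifs play a part in the spread was not tested. A match describes the letters in this window only.

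Finally, the other genes of the nuclear envelope were examined in a list of 32 genes, of which 28 were tested. They include enzymes that process lamins, LEM domain proteins, LINC relatives and partners, and nuclear pore proteins near the lamina. In each comparison, 0 of 28 passed the adjusted threshold (limma). Without adjustment, p was under 0.05 for 0 genes in MS against CTL, 1 in Blebb. against MS and 0 in Blebb. against CTL, and the number whose groups did not overlap was 0, 3 and 0. Over all genes tested, 0.158%, 1.25% and 0.0890% had such a p and 3.17%, 3.73% and 2.08% did not overlap. The list's median log2 fold change was -0.025, -0.029 and -0.041, beside -0.0018, -0.0059 and -0.013 over all genes. Sun3 and Sun5, SUN genes known from the male germ line, were listed at 0 in all libraries, while Spag4, a further SUN domain gene, ran from 1.08 to 2.28 FPKM.

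Zmpste24, the protease that cuts prelamin A to mature lamin A, was the 1 gene of this list at an unadjusted p under 0.05. It was at 11.6, 12.6 and 13.8 FPKM in CTL, 16.2, 11.9 and 18.9 FPKM in MS and 9.04, 7.41 and 12.7 FPKM in Blebb. The groups overlapped, since MS replicate 2 lay below Blebb. replicate 3. Its log2 fold change was -0.65 in Blebb. against MS (SE 0.22, unadjusted p = 0.0151, adjusted p = 0.897, limma) and 0.27 in MS against CTL (adjusted p = 1.00, limma), in both the value farthest from 0 in its direction among the 28 genes. The 3 genes without overlap were all higher in Blebb. than in MS, by narrow margins. The lowest Blebb. library and the highest MS library were at 15.5 and 15.4 FPKM for Tmem201. They were at 31.1 and 30.7 FPKM for Chmp7 and at 1.71 and 1.67 FPKM for Spag4. Tmem201, the SAMP1 protein of the inner membrane that moves the nucleus, was at 17.2 ± 1.53 FPKM (SD, n = 3) against 14.0 ± 1.44, with a log2 fold change of 0.29. Chmp7, an ESCRT protein that reseals the envelope, was at 34.4 ± 3.75 against 29.9 ± 1.13 FPKM (SD, n = 3), with 0.19. Spag4, a SUN domain gene, was at 2.02 ± 0.287 against 1.38 ± 0.296 FPKM (SD, n = 3), with 0.35. Each had an adjusted p of 0.897 (limma). Nup210, a membrane protein of the nuclear pore, had the largest positive value in Blebb. against MS at 0.38 and the largest negative one in MS against CTL at -0.27 (adjusted p = 0.897 and 1.00, limma). In Blebb. against CTL these were Spag4 at 0.24 and Tpr, a nuclear basket protein, at -0.40 (adjusted p = 1.00 for both, limma), and Tpr ran from 0.601 to 10.0 FPKM over the libraries.

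**Figure D5:**
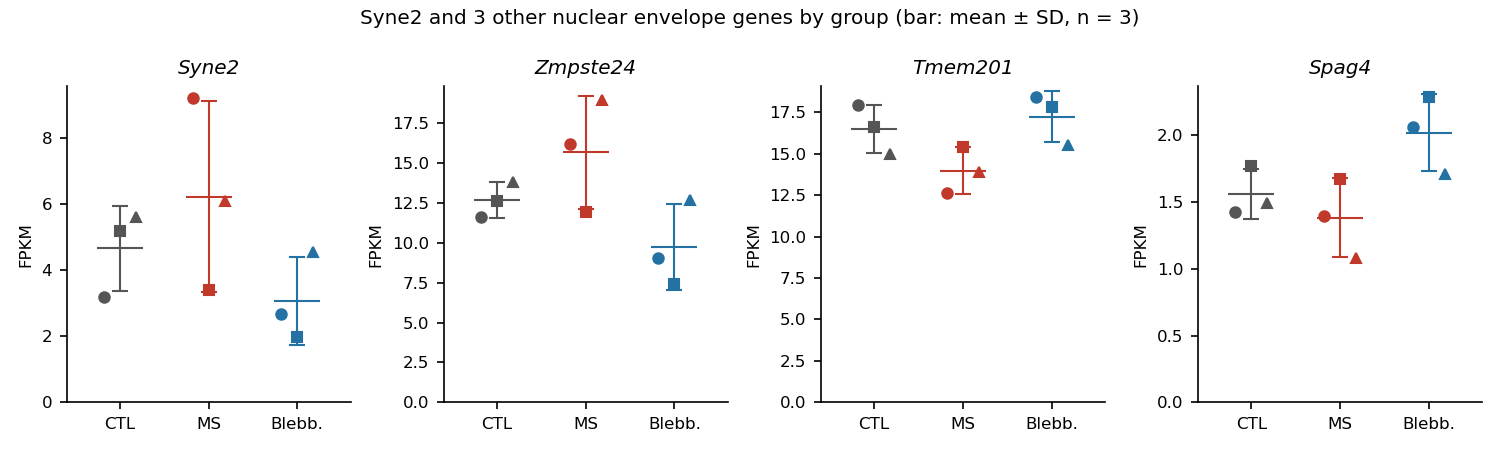
FPKM (vertical axes, starting at 0) of Syne2, Zmpste24, Tmem201 and Spag4 in CTL, MS and Blebb., with 1 symbol a library and bars for the mean ± SD (n = 3). Syne2 and Zmpste24 have lower means in Blebb. than in MS with overlapping libraries. Tmem201 and Spag4 are higher in Blebb. than in MS, without overlap but by narrow margins. After adjustment, 0 of the 4 passed the threshold.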

How the data were processed

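RNA of B16 cells was extracted with TRIzol and sequenced on an Illumina platform, and the authors deposited 1 FPKM value per gene and library. The aligner, the counting program, the annotation and any filter are not given in the sources used here, and the build in the submitters' processing notes is GRCm38 (mm10). In CTL replicate 1 the value column carries another heading, and its values have the same range. Sample titles gave the groups and replicate numbers.

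On the log2(FPKM + 1) scale, limma 3.58.1 (R 4.3.3) was run on the 10109 genes whose mean reached 1 FPKM, with all 9 libraries and 3 groups in 1 fit, a mean-variance trend, two-sided tests and Benjamini-Hochberg adjustment over all genes tested at a threshold of 0.05. Ratios of FPKM and Syne1 were compared by exact permutation. The alternatives were 0.1 in place of 1 as the pseudocount, other minimum levels (none or 5 FPKM), quantile normalization, median-of-ratios factors, removal of the GC trend (loess, span 0.5, 95.6% of the genes tested), no variance trend, only the groups compared, the replicate number as a block and each library left out. The genes and lists were chosen with earlier results of these data known. Named genes are the 10 lamin and LINC genes and, of the nuclear envelope list, those with an unadjusted p under 0.05, without overlap, or with the largest rise or fall in a comparison. The genes most like Lmna and Lmnb1 are the 5 with the highest Pearson's r over the 9 libraries among named genes of at least 5 FPKM on average, without the loci that carry only an assembler's number and the 10 genes themselves.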

Additional observations from a re-analysis of the deposited data

How the results depend on the processing

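The number of lamin and LINC genes called was 0 in every comparison and under every alternative. The signs of the small log2 values were less firm. Libraries were left out 1 at a time. CTL replicate 1 and Blebb. replicate 2 were also left out together (chosen after seeing the data), as were these with MS replicate 3. Of the gene values, 64 turned direction and 233 did not. The 233 include omissions of a library outside both groups compared, which cannot move the difference. Of the ratios and counts of calls, 17 turned and 64 did not. All 17 were ratios, and the counts, at 0 throughout, have no direction and are among the 64. In MS against CTL the ranges over all of these omissions were -0.026 to 0.063 for Emd, -0.44 to 0.29 for Lbr, -0.13 to 0.13 for Lmna, -0.46 to 0.52 for Lmnb1, -0.34 to 0.26 for Lmnb2, -0.092 to 0.13 for Syne3, -0.45 to 0.35 for Lmna/Lmnb1 and -0.13 to 0.33 for Lmnb1/Lmnb2. In Blebb. against MS the ranges over all of these omissions were -0.40 to 0.29 for Lbr, -0.17 to 0.12 for Lmna, -0.55 to 0.32 for Lmnb1, -0.21 to 0.28 for Lmnb2, -0.058 to 0.17 for Sun2, -0.21 to 0.59 for Lmna/Lmnb1 and -0.53 to 0.039 for Lmnb1/Lmnb2. In Blebb. against CTL the ranges over all of these omissions were -0.53 to 0.32 for Lbr, -0.17 to 0.12 for Lmna, -0.71 to 0.45 for Lmnb1, -0.31 to 0.30 for Lmnb2, -0.11 to 0.012 for Sun1, -0.12 to 0.082 for Sun2, -0.25 to 0.021 for Syne3, -0.36 to 0.60 for Lmna/Lmnb1 and -0.42 to 0.16 for Lmnb1/Lmnb2. Syne2 kept its direction in all 3 comparisons with each library left out, and in Blebb. against MS it ran from -1.12 without MS replicate 2 to -0.51 without MS replicate 1. Without the 3 libraries it was -0.57, and without CTL replicate 1 and Blebb. replicate 2 it was -0.60. The omission of the 3 libraries gave the -0.13 and 0.039 of Lmnb1/Lmnb2 and the -0.058 of Sun2, which with 1 library left out reached -0.12, 0.029 and -0.034. Of the other alternatives, 13 gene values turned direction. Removal of the GC trend gave -0.10, 0.15 and 0.048 for Lbr in MS against CTL, Blebb. against MS and Blebb. against CTL, 0.054 for Lmna in MS against CTL, -0.10 for Lmnb2 in Blebb. against MS, and 0.0024 and -0.089 for Sun2 in MS against CTL and Blebb. against MS. Median-of-ratios factors gave 0.0034, 0.0069 and 0.010 for Lmna in the 3 comparisons. Quantile normalization gave -0.0052 for Lmnb2 in MS against CTL, and -0.029 and 0.0091 for Syne3 in MS against CTL and Blebb. against MS. What causes these turns was not tested. The levels did not follow the replicate numbers. Deviations of same-numbered libraries from their group means correlated between -0.785 and 0.835, with 2 of 9 pairs over 0.1. The labels do not say whether same-numbered libraries were paired. With the replicate number as a block, 0 genes were called and 14, 119 and 10 of all genes had an unadjusted p under 0.05 in limma, against 16, 126 and 9 without it. In this balanced design the block cannot move a difference of group means (-0.15, 0.25 and 0.099 for Lmna/Lmnb1 and 0.13, -0.30 and -0.17 for Lmnb1/Lmnb2) but only its p. Read depth is unknown, so no counting error could be given.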

Other observations

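Among 6904 named genes whose mean reached 5 FPKM, with assembler loci and the lamin and LINC genes left out, those whose log2(FPKM + 1) was most like Lmnb1 over the 9 libraries were Incenp, of the chromosomal passenger complex (r = 0.996), Dnmt1, the maintenance DNA methyltransferase (0.995), Mcm6, of the replicative helicase (0.994), G3bp1, a stress granule protein (0.994), and Rrm2, of ribonucleotide reductase (0.992). Without CTL replicate 1, MS replicate 3 and Blebb. replicate 2, r over the other 6 libraries was between 0.799 for Rrm2 and 0.939 for Dnmt1. Incenp was at 15.3, 30.1 and 36.4 FPKM in CTL, 33.7, 29.7 and 23.1 FPKM in MS and 31.6, 14.3 and 31.4 FPKM in Blebb. The genes most like Lmna were Exosc10, of the nuclear exosome (0.976), Poc1a, a centriole protein (0.975), Smarcad1, a chromatin remodeler (0.970), Tdp1, a DNA repair phosphodiesterase (0.967), and Emc8, of an ER membrane complex (0.966), with r between 0.876 and 0.979 over the 6 libraries. These are descriptions of the same 9 libraries, which share depth, GC and length trends, and no test was made on them.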
